A study of Mus musculus with 2 samples.

Results

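The mouse cluster that holds miR-216 and miR-217 consists of 3 hairpins, mir-216b, mir-216a and mir-217, and this account covers their 6 mature arms, miR-216a-5p, miR-216a-3p, miR-216b-5p, miR-216b-3p, miR-217-5p and miR-217-3p. The arms were chosen by name, and all 6 were found among the 1358 miRNAs of the deposited tables. The study profiled small RNA from whole retina of CD-1 mice, wild-type and of an outbred stock, at postnatal day 0. It has a single group of 2 libraries, replicate 1 and replicate 2, with no mutant, treated or second age group, so levels can be described and the libraries compared, but no condition can be tested. The labels do not say whether the libraries came from separate animals. The p-values between them take counting error as the only noise, so they measure no spread between animals or preparations. Whole retina mixes all its cell types, so fewer cells of a type and less RNA per cell cannot be told apart.

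A miRNA hairpin is cut by the nucleases Drosha and Dicer into a short duplex, and either strand, named 5p or 3p after its side of the hairpin, can be loaded into an Argonaute protein. The loaded strand finds messenger RNAs mainly through its seed, bases 2 to 8, and lowers their translation or stability. The cluster is best known from the exocrine pancreas. The series title connects miR-216b and Foxn3, a forkhead transcription factor, with the making of amacrine cells. These are the inhibitory interneurons that shape signals in the inner retina, and they are still maturing at birth.

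The mature sequences are shown first because the seed decides which of these miRNAs can act on shared targets. They are the RefSeq entries on GRCm38.p6, 5′ to 3′, with bases 2 to 8 in capitals, and all 6 arms had an entry.
miR-216a-5p: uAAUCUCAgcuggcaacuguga
miR-216b-5p: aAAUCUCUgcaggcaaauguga
miR-217-5p: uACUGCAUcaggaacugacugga
miR-216a-3p: cACAGUGGucucugggauuaug
miR-216b-3p: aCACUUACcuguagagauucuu
miR-217-3p: cAUCAGUUccuaaugcauugccu

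miR-216a-5p and miR-216b-5p were the close pair of the cluster. They were identical at 18 of 22 positions (81.8%), with the substitutions U1A, A8U, U11A and C17A (miR-216a-5p base first, positions counted from 1 at the 5′ end). Bases 2 to 7 were the same in both, and the seeds differed in the last base through A8U. The 3p arms of the same hairpins were identical at 7 of 22 positions. miR-217-5p was identical to miR-216a-5p at 6 of 22 positions and to miR-216b-5p at 6 of 22. No other miRNA of the 1338 with a sequence at hand had the bases 2 to 8 of any of the 6 arms. That was not unusual, since 71.7% of these miRNAs shared bases 2 to 8 with no other. With bases 2 to 7, miR-216a-5p and miR-216b-5p formed a family of 2 and the other 4 arms stood alone.

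The hairpins lie within 17645 bases on the plus strand of chromosome 11 (GRCm38.p6), in the order mir-216b, mir-216a, mir-217. Mir216b is at chr11:28746191-28746276, Mir216a at chr11:28757012-28757083 and Mir217 at chr11:28763728-28763835. The gaps between them are 10735 and 6644 bases. In the GENCODE M21 annotation Mir216a and Mir217 sit in introns of the lincRNA Gm12082. RefSeq lists the lncRNA Mir217hg at bases 28730633 to 28751781 of chromosome 11. The build and strand of that entry were not at hand, so its place relative to the hairpins was not settled. GENCODE M21 has no longer transcript of the plus strand over Mir216b. Each of the 6 mature sequences belongs to a single hairpin in RefSeq, and none of their deposited counts was a fraction. Whole counts do not exclude split reads, whose parts can add up to a whole number. The hairpins are printed because the balance of their arms is a main result below. Capitals mark the annotated arms, 5p first.
Mir216b: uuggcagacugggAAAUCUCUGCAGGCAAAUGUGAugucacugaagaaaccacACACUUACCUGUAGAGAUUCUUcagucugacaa
Mir216a: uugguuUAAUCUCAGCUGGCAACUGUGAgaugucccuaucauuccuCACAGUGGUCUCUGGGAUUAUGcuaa
Mir217: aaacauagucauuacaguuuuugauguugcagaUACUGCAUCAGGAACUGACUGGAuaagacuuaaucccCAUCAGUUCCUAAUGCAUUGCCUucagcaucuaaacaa
GENCODE M21 also lists Mir216c on the opposite strand of Mir216b, and no miR-216c arm was among the deposited counts.

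The libraries held 8337902 and 8118196 counts, and levels are given in CPM, counts scaled to these totals. At this depth a miRNA with no count may still reach 0.36 CPM in replicate 1 and 0.37 in replicate 2, the level of 3 counts. Intervals below are exact 95% binomial intervals and, like these limits, cover counting error only. The labelled tissue was checked against its miRNAs. The neural and sensory markers miR-9-5p, miR-182-5p, miR-183-5p, miR-96-5p and miR-124-3p lay between 649 and 227200 CPM on average. Of the other tissues' markers, miR-204-5p of the pigment epithelium and lens stood at 3389 CPM, miR-184-3p of lens and cornea at 804 CPM and miR-126a-3p of endothelium at 905 CPM. miR-451a of red cells had 3 counts in each library, and miR-223-3p of myeloid cells and miR-205-5p of surface epithelium had none. The other 8 listed markers of pigment epithelium, vessels, blood, liver and muscle lay between 1.34 CPM (miR-133a-3p) and 70.7 CPM (miR-206-3p). These 8 included the remaining pigment epithelium marker, miR-211-5p, with a mean of only 5.65 CPM. They also included the remaining endothelium marker, miR-126a-5p, with a mean of 14.8 CPM. The markers of either list thus differed widely in level. The pancreas is the other tissue known for this cluster. Its list held miR-375-3p, an islet miRNA, at 72.9 ± 7.39 CPM (SD, n = 2), and miR-148a-3p, which many tissues express, at 21570 ± 1929 CPM. The part of other cells in the levels of the cluster was not tested.

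Taken as a whole, the cluster held 26459 counts in replicate 1 and 23123 in replicate 2, or 3173 and 2848 CPM. Most of it was miR-217-5p and miR-216b-5p. The 5p arms together made up 96.5% ± 0.361 of the counts of the cluster (SD, n = 2).

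miR-217-5p was the highest arm. It had 12637 counts in replicate 1 (1516 CPM, interval 1489 to 1542) and 12670 in replicate 2 (1561 CPM, interval 1534 to 1588), and ranked 59 in each library. miR-216b-5p, the arm named in the title of the series, had 11607 counts in replicate 1 (1392 CPM, interval 1367 to 1418) and 8440 in replicate 2 (1040 CPM, interval 1018 to 1062). Its rank was 62 in replicate 1 and 70 in replicate 2. These arms lay close together in replicate 1 and further apart in replicate 2, with miR-217-5p the higher in each.

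miR-216a-5p, the seed relative of miR-216b-5p, was well below it. It had 1366 counts in replicate 1 (164 CPM, interval 155 to 173) and 1153 in replicate 2 (142 CPM, interval 134 to 150). Within the libraries miR-216b-5p exceeded it by log2 ratios of 3.09 (interval 3.01 to 3.17) and 2.87 (2.78 to 2.96). The reads of this pair, which share bases 2 to 7, summed to 1556 CPM (replicate 1) and 1182 CPM (replicate 2), most of them from miR-216b-5p.

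Among the 3p arms the order of the hairpins was turned around. miR-216a-3p was the highest, with 765 counts in replicate 1 (91.7 CPM, interval 85.4 to 98.5) and 794 in replicate 2 (97.8 CPM, interval 91.1 to 105). miR-216b-3p had 66 counts in replicate 1 (7.92 CPM, interval 6.12 to 10.1) and 52 in replicate 2 (6.41 CPM, interval 4.78 to 8.40). miR-217-3p had 18 and 14 counts, 2.16 CPM (interval 1.28 to 3.41) and 1.72 CPM (interval 0.943 to 2.89). The intervals of these 3 arms did not overlap in either library. The log2 ratio of miR-216b-3p over miR-216a-3p was -3.72 ± 0.28 and that of miR-217-3p over miR-216a-3p was -5.57 ± 0.29 (SD, n = 2), opposite in sign to the 5p arms of the same hairpins. Counting error alone was 23.6% and 26.7% for miR-217-3p, so its level is known only roughly.

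**Figure D1:**
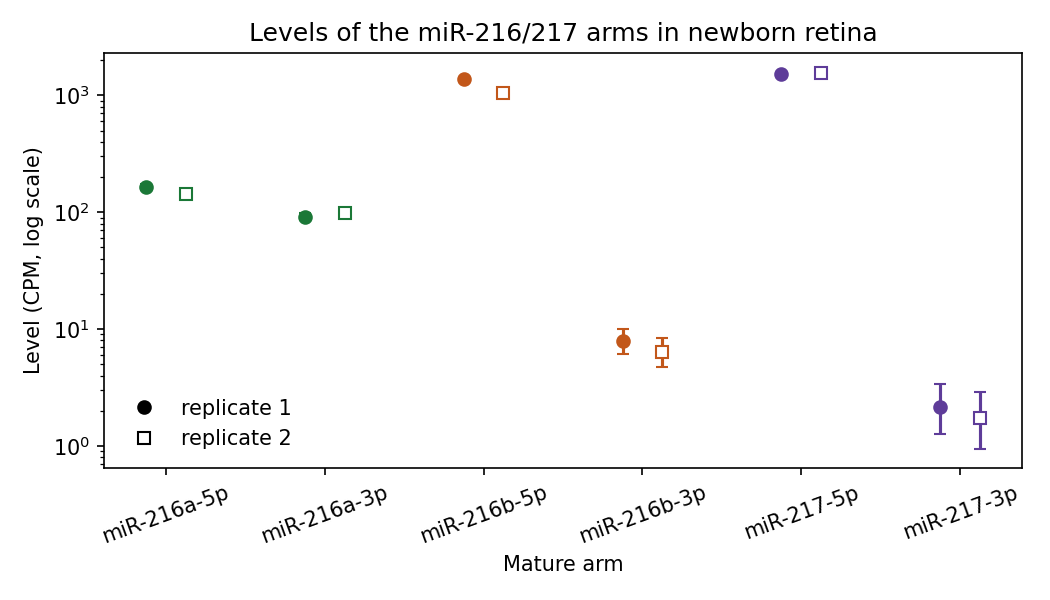
Level in CPM (log axis) of each arm in replicate 1 (filled circles) and replicate 2 (open squares), with exact 95% binomial intervals as bars, which are smaller than the symbols for most arms. miR-217-5p and miR-216b-5p lie at 1040 CPM or higher in each library, and miR-217-3p lies at 2.16 and 1.72 CPM.

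The order of the mean levels was miR-217-5p, miR-216b-5p, miR-216a-5p, miR-216a-3p, miR-216b-3p and miR-217-3p, at ranks 59, 65, 158, 183, 392 and 550 of 1358. Neighbours in this order differed by a mean log2 ratio beyond 2 SD, with a single exception. Between the leading arms, miR-217-5p over miR-216b-5p, the log2 ratio was 0.12 (interval 0.086 to 0.16) in replicate 1 and 0.59 (interval 0.55 to 0.63) in replicate 2. The mean of 0.35 ± 0.33 (SD, n = 2) was within 2 SD, although miR-217-5p was the higher beyond counting error in each library. An SD of 2 libraries is imprecise. For miR-217-3p over miR-216b-3p it was 0.0074, far below counting error. The intervals of that log2 ratio were -2.71 to -1.11 in replicate 1 and -2.86 to -1.02 in replicate 2. The sequences differ, so adapter ligation yield is part of every ratio between arms, and its part was not tested.

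**Figure D2:**
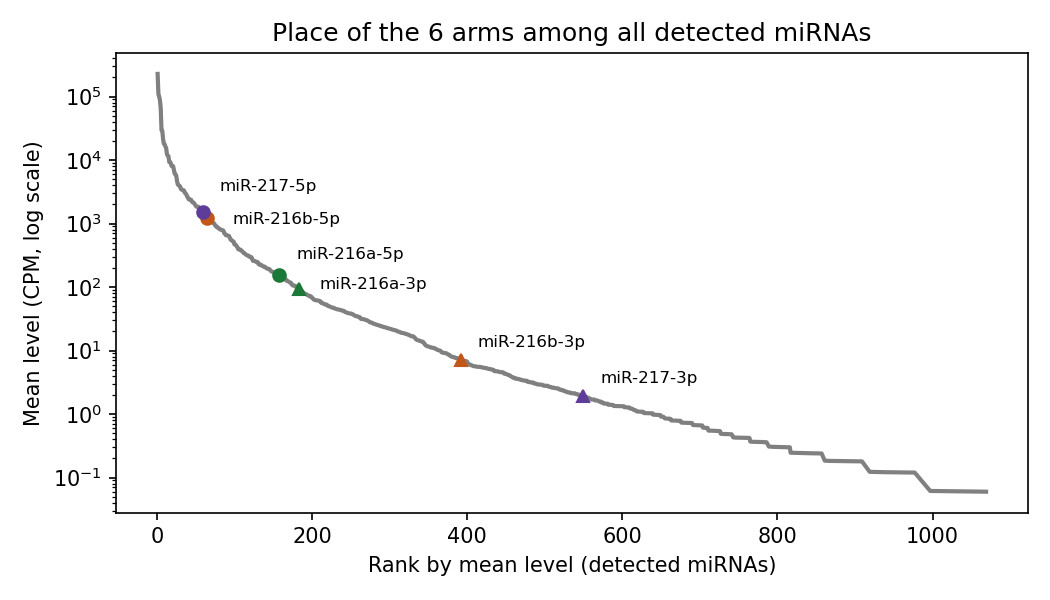
Mean level in CPM (log axis) of every detected miRNA against its rank (grey line), with the 5p arms as circles and the 3p arms as triangles. miR-217-5p and miR-216b-5p sit together at ranks 59 and 65, and the 3p arms of these hairpins at ranks 550 and 392.

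The miRNAs most like each arm in level were those at the smallest Euclidean distance in log2 CPM over the 2 libraries. For miR-216b-5p they were miR-543-3p (distance 0.18), miR-382-5p (0.25) and miR-24-3p (0.26). miR-543-3p was at 1381 CPM in replicate 1 and 917 CPM in replicate 2. It differed in the same direction as miR-216b-5p, which a choice by nearness in both libraries favours. For miR-217-5p they were miR-296-3p (0.11), miR-125b-5p (0.17) and miR-106b-3p (0.18). For miR-216a-5p they were miR-301a-5p (0.055), miR-342-3p (0.089) and miR-450a-5p (0.089), and for miR-216a-3p miR-30c-2-3p (0.10), miR-350-5p (0.12) and miR-485-5p (0.17). The low arms lay nearest to miR-7658-5p (0.072), miR-879-5p (0.11) and miR-466d-3p (0.11) for miR-216b-3p, and to miR-34b-5p (0.082), miR-8114 (0.13) and miR-670-3p (0.15) for miR-217-3p. With 2 libraries this is a likeness of level and nothing more.

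The 3 hairpins differed in which arm they gave. In mir-217 the 5p arm held 99.86% of the hairpin's counts in replicate 1 (interval 99.78 to 99.92) and 99.89% in replicate 2 (99.81 to 99.94). In mir-216b it held 99.43% (99.28 to 99.56) and 99.39% (99.20 to 99.54). mir-216a gave both arms, with 64.1% from the 5p arm in replicate 1 (interval 62.0 to 66.1) and 59.2% in replicate 2 (57.0 to 61.4). The intervals of mir-216a lay below those of the other hairpins and did not overlap them.

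As log2 ratios of 5p over 3p counts, with 0.5 added to each count, these were 9.42 and 9.77 for mir-217, 7.45 and 7.33 for mir-216b, and 0.84 and 0.54 for mir-216a. The mean for mir-216a was 0.69 ± 0.21 (SD, n = 2). All hairpins with 10 or more counts over a listed pair of arms in each library, 312 in number, were tested for equal counts of the arms (exact binomial test, two-sided, Benjamini-Hochberg adjusted over the 312). An arm was called higher if each library had that sign with an adjusted p under 0.05 and the mean log2 ratio was larger than 2 SD. The 5p arm was called higher in all 3 hairpins, including mir-216a (adjusted p = 7.64e-39 in replicate 1 and 6.72e-16 in replicate 2, exact binomial test). A call was common, since 89.4% of the hairpins had one and 46.2% had one towards the 5p arm. The size of the ratio therefore tells more than the call. mir-217 ranked 19 of 312 and mir-216b 41 of 312 in 5p over 3p, whereas mir-216a was at rank 148. The median over the 312 was 0.22. mir-216b and mir-217 were among the 126 hairpins with a 4-fold or larger excess of the 5p arm in both libraries, and mir-216a was among the 71 with no such excess of either arm.

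**Figure D3:**
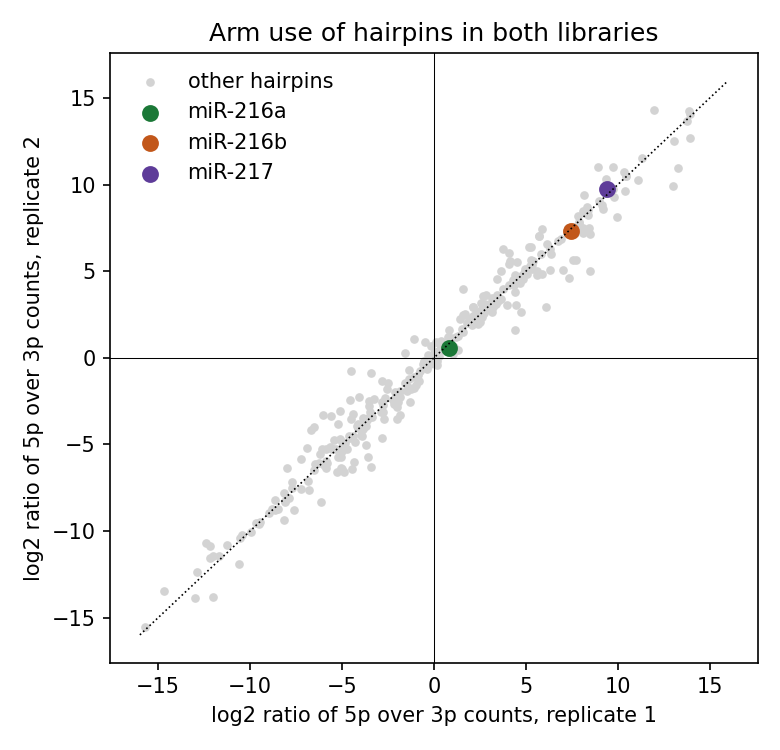
Log2 ratio of 5p over 3p counts in replicate 1 (x axis) and replicate 2 (y axis) for the 312 tested hairpins, with the 3 hairpins of the cluster in colour and equal ratios on the dotted line. mir-217 and mir-216b lie far to the 5p side, and mir-216a lies close to 0 at 0.84 and 0.54.

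The arm balance of mir-216a also differed between the libraries. A two-sided Fisher's exact test of arm by library was run on the same 312 hairpins. This ratio is taken within a library, so it does not depend on library size. The log2 ratio of mir-216a was lower in replicate 2 by a change of -0.30 (adjusted p = 0.0175, Fisher's exact test), and 8.65% of the hairpins were called. The changes of mir-216b (-0.12) and mir-217 (0.36) were not called (adjusted p = 1 in each, Fisher's exact test), with 66 and 52 or 18 and 14 counts of the minor arm behind them. This test compares libraries, not conditions.

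The make-up of the cluster differed between the libraries in its leading arms. miR-217-5p took 47.8% of the counts of the cluster in replicate 1 (interval 47.2 to 48.4) and 54.8% in replicate 2 (54.1 to 55.4). miR-216b-5p took 43.9% (43.3 to 44.5) and 36.5% (35.9 to 37.1). miR-216a-5p took 5.16% (4.90 to 5.44) and 4.99% (4.71 to 5.27), and miR-216a-3p took 2.89% (2.69 to 3.10) and 3.43% (3.20 to 3.68). The 2 low arms together stayed under 0.4%. The ratio of miR-217-5p to miR-216b-5p was thus higher by 0.46 on the log2 scale in replicate 2 than in replicate 1 (interval 0.41 to 0.52 from the exact odds ratio). The interval excludes 0, so this difference was larger than counting error. The interval for miR-216b-5p over miR-216a-5p, with a change of -0.22, ran from -0.34 to -0.094 and excluded 0 as well.

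**Figure D4:**
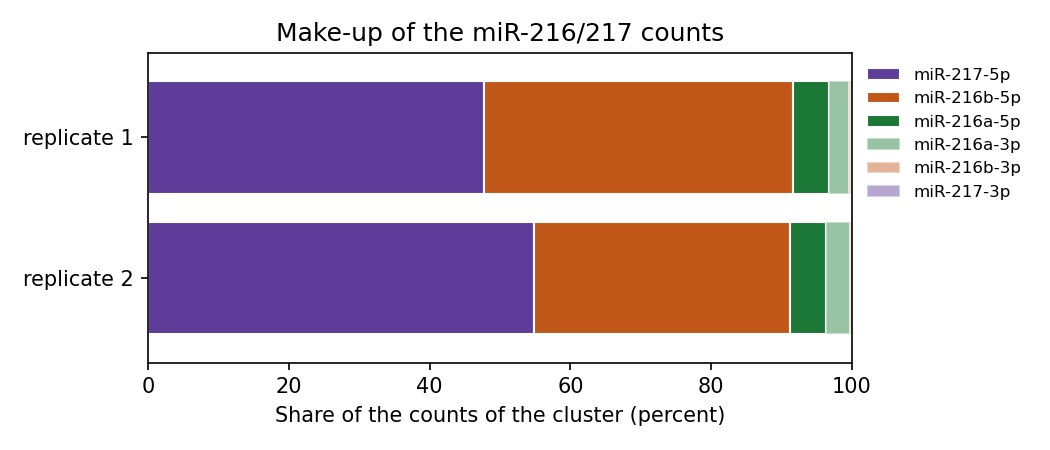
Share of the counts of the cluster (percent) held by each arm in the 2 libraries, with 3p arms in the paler colour of their hairpin. miR-217-5p holds 47.8% in replicate 1 and 54.8% in replicate 2, while miR-216b-5p holds 43.9% and 36.5%.

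The libraries were also compared for each of the 710 miRNAs whose summed count reached 10. An exact binomial test (two-sided) against the share given by the library totals was used, Benjamini-Hochberg adjusted with a threshold of 0.05. Of the 6 arms, miR-216b-5p and miR-216a-5p were called, both lower in replicate 2. Over all 710 miRNAs 27.9% were called, 19.6% lower and 8.31% higher in replicate 2. The log2 ratio of replicate 2 over replicate 1 was -0.42 for miR-216b-5p (adjusted p = 4.66e-92, exact binomial test). The share called was 78.3% among the 180 miRNAs that reached 100 CPM, and 9 of them differed by at least as much as miR-216b-5p, which is counted among them. Their median absolute log2 ratio was 0.17. For miR-216a-5p it was -0.21 (adjusted p = 0.0018 by the exact binomial test). The log2 ratio was 0.042 for miR-217-5p (adjusted p = 0.0661), 0.092 for miR-216a-3p (adjusted p = 0.427), -0.30 for miR-216b-3p (adjusted p = 0.49) and -0.31 for miR-217-3p (adjusted p = 0.79), all by the exact binomial test.

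Scaling by library totals left the median log2 ratio over the 710 miRNAs at -0.12, against -0.0037 with TMM and -0.020 with DESeq2 size factors, and the calls of 3 of the 6 arms changed with it. The share of miRNAs called was 26.3% with TMM and 26.6% with DESeq2 size factors. With TMM, miR-216a-5p was at -0.088 and not called (adjusted p = 0.321), while miR-217-5p at 0.16 (adjusted p = 1.25e-17) and miR-216a-3p at 0.21 (adjusted p = 0.0181) were called higher in replicate 2, all by the exact binomial test. DESeq2 size factors gave the same calls for these 3 arms. miR-216b-5p was lower in replicate 2 under every scaling, at -0.30 with TMM and -0.32 with DESeq2 size factors, and was called each time. Among the 180 miRNAs, 26 with TMM and 19 with DESeq2 size factors then differed by at least as much.

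**Figure D5:**
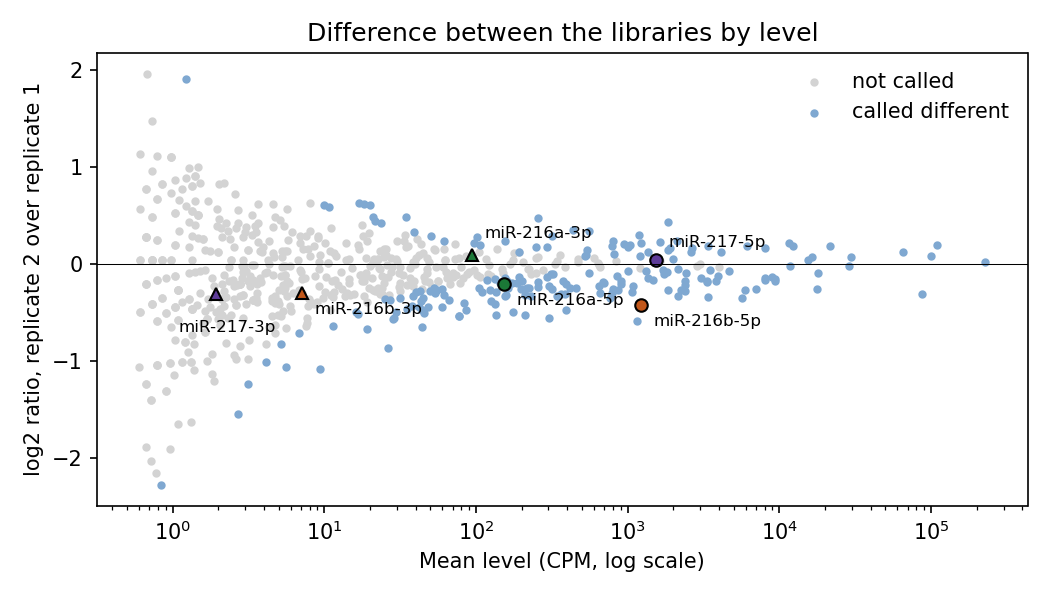
Log2 ratio of replicate 2 over replicate 1, scaled by library totals, against mean CPM (log axis) for the 710 tested miRNAs, with those called different in blue and the 6 arms outlined (circles 5p, triangles 3p). miR-216b-5p lies at -0.42, towards the lower edge of the miRNAs of its level, and miR-217-5p lies at 0.042.

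The ends of the reads decide which seed a miRNA presents, and the deposited table gives the most frequent read of each arm in each library. For miR-216b-5p, miR-217-5p, miR-216a-3p and miR-216b-3p that read was the same in both libraries. For the 5 arms other than miR-217-3p it started at the annotated base in both libraries, so the most frequent reads carried the seeds printed above. The share of reads with other starts is not given. Over the 180 miRNAs that reached 100 CPM, the most frequent read was the same in both libraries in 97.2%, and it started at the annotated base of both in 93.3%.

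The leading 5p arms were shorter at the 3′ end than their RefSeq entries. The reads below are printed as DNA letters with bases 2 to 8 in capitals, because they are the forms that were sequenced most often.
miR-216b-5p in both libraries: aAATCTCTgcaggcaaatgtg
miR-217-5p in both libraries: tACTGCATcaggaactgactgg
miR-216a-5p in replicate 1: tAATCTCAgctggcaactgtg
miR-216a-5p in replicate 2: tAATCTCAgctggcaactgtga
The read of miR-216b-5p had 21 bases against 22 in RefSeq, and that of miR-217-5p had 22 against 23. miR-216a-5p ended 1 base short in replicate 1 and at the annotated base in replicate 2. A read shorter at the 3′ end in both libraries was found in 18.6% of the 161 miRNAs at 100 CPM or more with a RefSeq entry. The most frequent reads of miR-216a-3p and miR-216b-3p equalled their RefSeq entries.

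miR-217-3p gave different reads in the 2 libraries, and they start at different bases.
miR-217-3p in replicate 1: aTCAGTTCctaatgcattgcct
miR-217-3p in replicate 2: cATCAGTTcctaatgcattgcct
The read of replicate 1 began 1 base later, so its bases 2 to 8 are moved by 1 base. The arm had 18 and 14 counts, and at 1 to 10 CPM only 69.5% of the miRNAs had the same most frequent read in both libraries.

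Foxn3 is paired with miR-216b in the title of the series, so its longest 3′ UTR in GENCODE M21 (6189 bases, minus strand of chromosome 12, GRCm38) was searched for the complements of the seeds of the 4 highest arms, the 5p arms and miR-216a-3p. This search uses the reference alone and no measured value. AGAGATT, the complement of bases 2 to 8 of miR-216b-5p, was not in this window. GAGATTA, the complement of bases 2 to 7 followed by an A opposite base 1, occurred at 1 place, starting at base 1064 of the UTR. The preceding base there is T, so the same place also holds TGAGATT, the complement of bases 2 to 8 of miR-216a-5p. Capitals mark the match to bases 2 to 8 of miR-216a-5p with the A, TGAGATTA, which contains the match for miR-216b-5p.
Foxn3 chr12:99195190-99195212, minus strand: tgtctttaTGAGATTAaaggcac
The members differ at 2 of the 8 marked positions, by U1A opposite the last A and by A8U opposite the first T. GAGATTA was found in the longest 3′ UTR of 7.27% of 20815 genes, and in 22.2% of the 2610 genes whose UTR is 0.5 to 2 times as long as that of Foxn3. TGAGATTA was found in 3.13% and 9.39%. AGAGATT was found in 11.8% and 35.6%.

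miR-217-5p had 1 match to bases 2 to 8 in the same UTR, ATGCAGT, starting at base 2817, and 33.4% of the UTRs of similar length hold this motif. Capitals mark it.
Foxn3 chr12:99193436-99193458, minus strand: gtgacaagATGCAGTgtgtgtgt
miR-216a-3p, the arm that mir-216a also gave in quantity, had 1 match to its bases 2 to 8, CCACTGT, starting at base 5328, and 39.5% of the UTRs of similar length hold it. Capitals mark it.
Foxn3 chr12:99190925-99190947, minus strand: gtgttcctCCACTGTgttgcatt
These matches are shared by many UTRs of this length and are a description of the sequence only.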

How the data were processed

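Per the labels' protocols, gel-selected RNA (18 to 30 nt) was ligated to adapters, and its cDNA (60 to 80 nt) was gel-selected again. The submitters' processing notes name bcl2fastq 2.17.1.14. The aligner, the counter and the build were not given in the sources used here. The authors deposited estimated counts per mature miRNA, unscaled, and 6.77% and 5.96% of the values were fractions. The CPM table deposited by the authors sums to 88.5% of a full library in each column, so it was scaled to a larger total than the one used here. The third table is text, with differences from miRBase release 21 shown by marks that the file headers explain.

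Counts were rounded to whole numbers (ties to even), and CPM was computed from the table totals. Ratios have 0.5 added to each count. With 1 group no quasi-likelihood test is possible, so libraries and arms were compared by exact binomial and Fisher's exact tests over the whole table. These p-values cover counting error only, and edgeR's coefficient of variation beyond counting error was 0.104. TMM factors (edgeR 4.0.16) and DESeq2 1.42.0 size factors came from R 4.3.3. The rest used Python 3.11.15, pandas 2.3.3, NumPy 2.4.6, SciPy 1.17.1 and matplotlib 3.10.9. RefSeq held 1152 of the 1358 names. For the others the most frequent read gave the seed. The rule for named miRNAs took the 6 arms, the 3 nearest in level to each, seed relatives and listed markers. The next miRNA above and below each arm is left out for length. The tests were checked on simulated data with counting error alone, so that check does not cover variation beyond counting error. The members and lists were chosen with earlier results of these data known.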

Additional observations from a re-analysis of the deposited data

How the results depend on the processing

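Of 139 alternatives, 118 were kept by the rule for their kind of value, and none reversed a direction. Tests had to keep direction and call, and other values had to stay within 1 SD. Counts of called miRNAs or hairpins had to stay within a set fold of the main count. Matches in the UTR had to be equal in number. Part of this tally was fixed by construction, so it is not a measure of robustness. The value of either of 2 libraries always lies within 1 SD of their mean, so leaving out a replicate had to count as kept. Counts left unrounded could not alter the arm ratios of the cluster, since none of its counts was a fraction. Levels and seed totals cannot change direction, and the seed totals with bases 2 to 8 repeat the levels. With 2 libraries an SD is imprecise, and arms under 100 counts are limited by depth. The deposited CPM lowered miR-216a-5p to 135.4, miR-216a-3p to 83.9 and miR-217-5p to 1362, by construction of its larger total. Between the libraries, miR-216a-5p lost its call with TMM (-0.088) and DESeq2 size factors (-0.10). Calls were gained by miR-216a-3p (0.21 and 0.19) and miR-217-5p (0.16 and 0.14, and 0.042 with a minimum of 100 counts, adjusted p = 0.0392, exact binomial test with fewer miRNAs tested). The calls over all miRNAs moved from 59 higher and 139 lower in replicate 2 to 107 and 80 with TMM and to 101 and 88 with DESeq2 size factors. miR-217-3p over miR-216b-3p was at a log2 of -1.88 with 0.1 and -1.82 with 1 added to each count, against -1.85. A seed of bases 2 to 7 joined miR-216a-5p to miR-216b-5p at 1369 CPM. In the Foxn3 UTR, bases 2 to 7 followed by A gave 1 match for miR-216b-5p in place of 0 and 0 for miR-217-5p in place of 1. No paired analysis was possible because there is a single group. Leaving out a replicate leaves the values of the other library, given above. No arm call of a hairpin could be lost by this, since a call already requires an adjusted p under 0.05 in each library.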

Other observations

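The hairpin totals of the cluster spanned a log2 range of 2.57 in replicate 1 and 2.70 in replicate 2, from mir-216a to mir-217. Clusters were taken as hairpins of 1 strand within 20 kb of the next. Hairpins were used only if each mature name has a single entry in the RefSeq table, which is not complete, and every arm in the count table is listed there. Of 15 clusters left with every such hairpin at 10 counts or more in each library, 9 spanned at least as much, this cluster included, and the median was 3.02. The other clusters of 3 such hairpins were mir-25/93/106b at 3.02 and mir-182/96/183 at 4.20. The median moved with the distance allowed. It was 3.57 over 16 clusters with 10 kb, where mir-216b fell outside this cluster, and 2.83 over 16 clusters with 50 kb. At least as wide a span was found in 10 clusters with 10 kb and in 9 with 50 kb.

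In each of the 3 hairpins the higher 5p arm had more A or U among its first 4 bases than the 3p arm, 4 against 2 in mir-216a and mir-216b and 3 against 2 in mir-217. Over the 219 hairpins with a called arm difference and both sequences in RefSeq, the higher arm had more in 96 (43.8%), fewer in 50 and the same number in 73. mir-216a and mir-216b had the same counts of A and U at these bases, and their arm ratios are given above. Whether these bases bear on arm choice was not tested.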
